A study of Mus musculus with 24 samples.

Results

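The comparison is of healthy quadriceps muscle between 2 inbred mouse strains: the 3 wild-type (WT) libraries of D2, the strain DBA/2J, against the 3 WT libraries of B6, the strain C57BL/6J. All 6 mice are labelled healthy and carry no disease allele, and all were 25 weeks old when the left quadriceps was frozen. The members were chosen by the strain and genotype labels alone, and they are 6 of the 24 libraries of the series. The study compared Lama2-CMD mice, a model of congenital muscular dystrophy in which the laminin alpha2 chain is defective, with WT mice on the backgrounds B6, D2, BXD-67 and BXD-87, here called 67 and 87. B6 and D2 are the parents of the BXD strains, so the comparison sets the parental backgrounds side by side in muscle without disease. Strain and anything else that differed between the 2 groups of mice cannot be told apart. The 3 D2 CMD and 3 B6 CMD libraries, from quadriceps of 25-week-old mutant mice, served as a second reading of the strain difference. They are not in the WT contrast, but the same fit pooled the spread of all 24 libraries, so the readings are not fully independent. Per the labels, the libraries were numbered 1 to 3 (B6 WT) and 19 to 21 (D2 WT).

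Inbred strains differ at many fixed sequence variants, and a variant that changes a promoter, a splice site, a stop codon or the copy number of a gene shifts the transcript level of that gene in every tissue that uses it. In skeletal muscle the same strains can also differ in fibre type, which is read from the myosin, troponin and calcium pump isoforms of slow and fast fibres, in mitochondrial content, and in the phase of the daily clock at the time of killing. DBA/2J is known in the dystrophy field as the background on which several models of muscular dystrophy are more severe than on C57BL/6J.

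The B6 WT libraries held 32292613 to 41330133 total exon reads and the D2 WT libraries 43614570 to 49589127, and each had reads on 15477 to 15845 genes. The counts over 4 genes of the Y chromosome matched the sex label in the 3 B6 WT libraries, with 3451 reads in library 1 (a male by label) and 18 and 4 in libraries 2 and 3 (female). In D2 WT the counts were 1 and 0 in libraries 19 and 21, whose label is male, and 0 in library 20, whose label is female. In D2 CMD, libraries 22 and 24 went against their female label with 4927 and 4858 Y-linked reads. Whether labels of sex or whole samples were exchanged was not tested. The D2 libraries lay apart by their disease labels in Timp1 and Hamp2, which were chosen after their values were seen. Timp1, a metalloproteinase inhibitor, was at 0.534, 0.290 and 0.458 CPM (reads scaled to the TMM-adjusted library size) in D2 WT and at 4.86, 12.7 and 9.46 in D2 CMD, and Hamp2, a hepcidin, at 0.467, 0.121 and 2.60 against 56.5, 104 and 125. Lama2 itself, which both WT groups should carry intact, was at 40.9, 36.5 and 50.3 CPM in B6 WT and at 42.5, 23.8 and 38.6 in D2 WT (adjusted p = 0.556). Summed levels of 10 muscle fibre markers ran from 179400 to 206200 CPM in B6 WT and from 162000 to 164400 in D2 WT, and none of the 10 was called different (2 at an unadjusted p under 0.05, 0 by DESeq2).

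Of 14789 genes tested, 1091 were called different between the strains (7.38%), at an adjusted p under 0.05 in edgeR's quasi-likelihood test with Benjamini-Hochberg adjustment. The called genes split into 417 higher in D2 (2.82% of those tested) and 674 lower (4.56%). The change was at least 2-fold, a log2 fold change of 1 or more, in 233 of the higher and 507 of the lower genes. Over all genes tested the median log2 fold change was -0.0022. The 3 libraries of one strain all lay above the 3 of the other in 409 of the 417 and in 667 of the 674 called genes, against 29.6% of all genes tested. The number of calls leaned on single libraries: it was 632 without library 21, 670 without library 2 and 701 without library 19. Of the higher calls, 217 were made without library 1, 209 without library 2, 261 without library 19 and 204 without library 21. Lower calls numbered 440 without library 19 and 428 without library 21.

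Part of the lower calls moved with transcripts of brain. Synaptic and transmitter genes such as Snap25, Syt1, Grin1 and Gad2 were read at a low level in the B6 libraries and at or near 0 in D2. The summed level of 12 genes known for their restriction to brain was 13.6, 39.9 and 19.7 CPM in the B6 WT libraries and 0.979, 0.772 and 0.583 in the D2 WT libraries. In the other 15 libraries that are not D2, WT and CMD alike, it ran from 13.1 to 42.2, and in the 3 D2 CMD libraries from 1.61 to 1.73. All 12 genes had reads in every library that is not D2, and 6 of 12 in each D2 WT library. All 12 were called lower in D2 WT, a list drawn up after these values were seen. Over the 18 libraries that are not D2, 211 of the 14789 genes (1.43%), members of the sum included, followed it with a Spearman correlation of at least 0.6, and they made up 170 of the 674 lower calls (25.2%) but 1 of the 417 higher calls. Without them, 416 genes were higher and 504 lower, a lower share of 54.8%, so lower calls still outnumbered higher ones. A separate cut kept the 10764 genes whose log2 CPM averaged 1 or more, with brain genes not left out. There the split was 295 higher and 267 lower, so the lower share went from 61.8% of all calls to 47.5%. Where the brain transcripts came from was not tested, and correlations with the brain sum are given for several of the genes below.

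**Figure D1:**
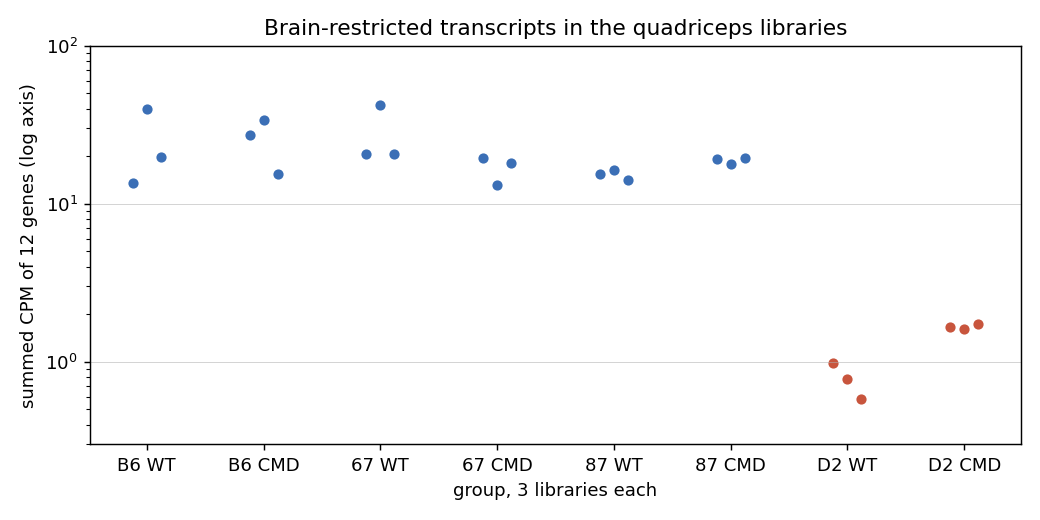
Summed CPM of 12 brain-restricted genes (log axis) in each of the 24 libraries, by group, 1 point per library. The 18 libraries of B6, 67 and 87 lie between 13.1 and 42.2 CPM and the 6 D2 libraries between 0.583 and 1.73.

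Some of the genes higher in D2 with the smallest p had little spread within either strain, which a ranking by p favours. Sfi1 (ENSMUSG00000023764), which encodes a centrin-binding protein of the centrosome, was at 6.04, 6.73 and 5.50 CPM in the B6 libraries and at 72.5, 68.8 and 77.1 in D2, so the groups lay far apart. Its log2 fold change was 3.58 ± 0.22 (SE), about 11.95-fold, with an adjusted p of 4.24e-09, the smallest of any gene together with Unc5a. Osbpl3, an oxysterol-binding-protein relative that carries lipids between membranes, had 1.28, 1.67 and 1.17 CPM in B6 against 12.8, 19.6 and 14.1 in D2 (log2 fold change 3.50 ± 0.34). Kbtbd12, a kelch-repeat protein, was the most abundant gene of this kind: 43.6, 46.0 and 32.2 CPM in B6 and 210, 235 and 200 in D2, 5.30-fold higher (adjusted p = 3.87e-06). For each of these genes every D2 library lay above every B6 library, which the rule that named them required.

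Smaller but equally tight differences were found for 4 enzymes and regulators. Hddc3, a hydrolase of the MESH1 family, stood at 5.51, 5.23 and 5.26 CPM in B6 and at 18.9, 21.8 and 19.4 in D2, and Fuca2, a secreted fucosidase, at 13, 12.1 and 13.6 against 32.6, 35.6 and 33.4. Ccndbp1, a cyclin D binding protein, was 2.69-fold higher in D2 and Hsd17b8, a mitochondrial dehydrogenase, 1.78-fold. None of their groups overlapped, again a condition of the naming rule. Chmp4c, a subunit of the membrane-cutting ESCRT-III complex, went from 0.437, 0.987 and 1.01 CPM in B6 to 31.9, 19.2 and 35.5 in D2, a log2 fold change of 5.13 ± 0.58 (adjusted p = 1.17e-05).

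Other large rises were uneven between the D2 mice. Mss51, a mitochondrial protein made almost only in skeletal muscle and a brake on its oxidative metabolism, was at 173, 38.1 and 30.6 CPM in B6 and at 523, 1012 and 443 in D2 (log2 fold change 3.03 ± 0.81). Its call was lost without library 2, 3 or 20 (adjusted p up to 0.116). Prune2 was at 9.77, 6.11 and 21.5 CPM in D2 and at 2.08, 0.837 and 1.01 in B6. Frem2, a protein of basement membranes, had 13.9, 8.83 and 4.64 CPM in D2 and 0.101, 0.837 and 2.26 in B6, and its call was lost without library 2 or 19 (adjusted p up to 0.0643). Elovl6, a fatty acid elongase, rested on 1 mouse: library 19 held 72.4 CPM, libraries 20 and 21 held 1.62 and 3.81, and B6 held 1.08, 1.38 and 1.17. Without library 19 its log2 fold change was 1.18 instead of 4.42 (adjusted p = 0.646), and the call was also lost without any one of the B6 libraries. A list of 10 brown fat genes, drawn up after these values were seen, includes Elovl6. The list summed to 204 CPM in library 19 and to 32.5 and 45.6 in libraries 20 and 21, where B6 WT held 16.9 to 41.4. Elovl6 itself made up 72.4 CPM of the sum in library 19, so its rise is partly counted in that sum. Among the libraries that are not D2, WT and CMD alike, the sum reached 162.7 CPM.

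Among genes lower in D2, Unc5a (ENSMUSG00000025876), a receptor for the axon guidance protein netrin, was read at 27.6, 39.4 and 27.1 CPM in B6 and at 1.60, 1.52 and 1.79 in D2. It was 19.1-fold lower (log2 fold change -4.26 ± 0.26, adjusted p = 4.24e-09). Pttg1 (ENSMUSG00000020415), securin, which holds sister chromatids together until anaphase, fell from 34.7, 45.1 and 45.9 CPM to 1.42, 1.38 and 1.48. This was 29.3-fold (log2 fold change -4.87 ± 0.37, adjusted p = 9.40e-08), and neither strain came near the other. The small GTPase Rab6b was at 13.2, 19.2 and 16.6 CPM in B6 and at 0.957, 0.459 and 0.250 in D2. Tceanc2, which carries a domain of transcription elongation factors, was at 15.3, 16.7 and 18.1 CPM against 0.756, 0.676 and 0.812, a 22.2-fold difference. Over the 18 libraries that are not D2 these 4 genes followed the brain sum weakly or not at all, with correlations of 0.0671, 0.284, 0.325 and -0.274 in the order named.

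Further genes lower in D2 were Mid1, a microtubule-associated ubiquitin ligase (7.03-fold), and Golm2, a Golgi membrane protein (3.51-fold). Nedd1, which brings gamma-tubulin to the spindle, was 2.35-fold lower, and Cacng7, a regulatory subunit of ion channels, 5.65-fold lower. Their groups did not overlap, which the naming rule required. The zinc finger genes Zfp956, Zfp975 and Zfp14 were 2.30-fold, 3.11-fold and 3.89-fold lower. Map2 and Shank1 encode a microtubule protein and a scaffold of nerve cells. Map2 was at 4.03, 11.6 and 6.64 CPM in B6 and at 0.779, 0.676 and 0.770 in D2, and Shank1 at 3.996, 12.3 and 6.33 against 0.756, 1.09 and 1.02. Both followed the brain sum over the libraries that are not D2, with correlations of 0.715 and 0.845, and both were highest in library 2, which also had the highest brain sum of the B6 libraries. Ifi205, an interferon-induced gene of a family of near copies, was 5.52-fold lower in D2, with 54.1% of its B6 reads unique.

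**Figure D2:**
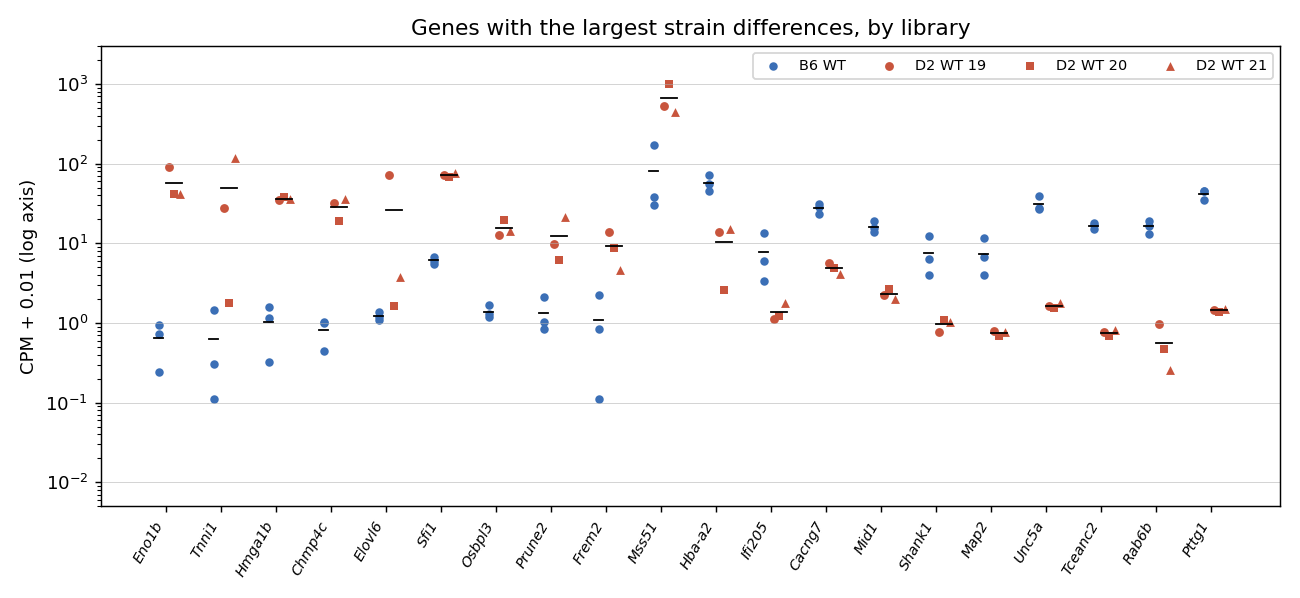
CPM (log axis, 0.01 added) of the 10 genes with the largest higher and 10 with the largest lower level in D2 WT that were called the same way in CMD muscle. Each point is 1 library, blue for B6 WT and red for D2 WT with a symbol for each mouse, and the bars are group means. Elovl6 and Tnni1 spread over more than 10-fold among the D2 mice, while Sfi1 and Pttg1 hardly spread.

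The strain differences were read again in dystrophic muscle, in libraries outside the WT contrast. Both contrasts came from the same fit and shared its estimate of spread, so their calls are not fully independent. Of the 417 genes higher in D2 WT, 323 also had a positive strain difference in CMD muscle and 186 (44.6%) were called higher there, where 11% of all genes tested were. Of the 674 lower genes, 617 had a negative difference and 456 (67.7%) were called lower, where 10.4% of all genes were. Leaving out the genes that followed the brain sum, 311 of 504 lower genes (61.7%) were called again. With libraries 16 and 23, which stand apart from their groups, left out of the fit, the repeated calls were 184 higher and 438 lower. The opposite call was made in CMD for 36 of the higher and 5 of the lower genes. A test of the difference between the WT and the CMD strain effect passed the threshold for 68 of the 417 and 38 of the 674 (3.62% of all genes).

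**Figure D3:**
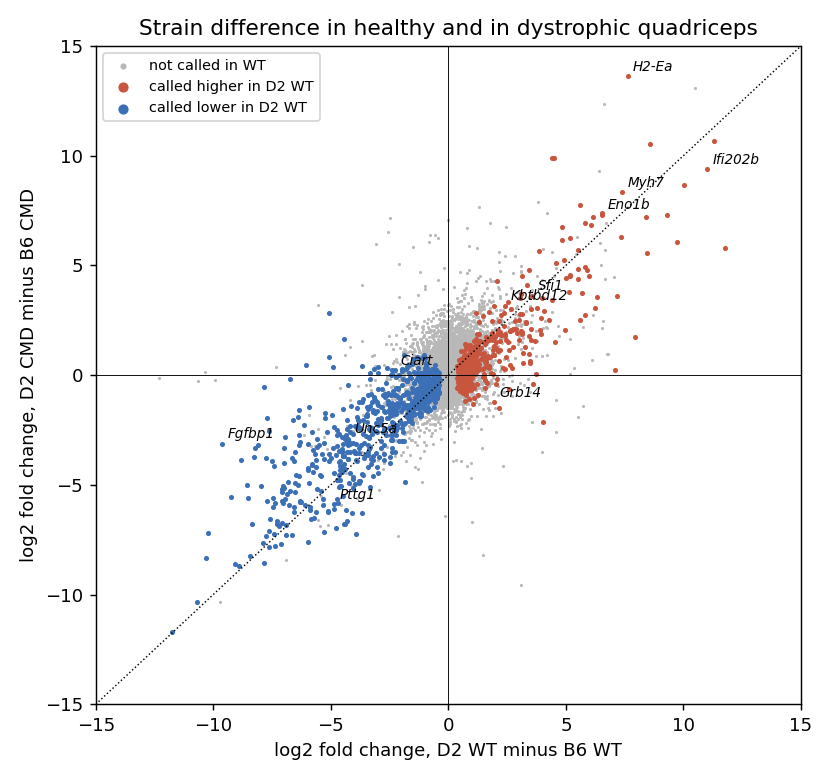
Log2 fold change of D2 against B6 in WT muscle (horizontal axis) and in CMD muscle (vertical axis) for the 14789 genes tested, 1 point per gene. Genes called higher in D2 WT are red, genes called lower are blue, and the dotted line marks equal differences. Most called genes lie in the quadrants of equal sign, and Ciart and Grb14 lie across the horizontal axis.

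Some genes were read in one strain and all but missing in the other. By the rule of at most 3 reads over the 3 libraries of one strain and a mean of at least 1 CPM in the other, there were 31 such genes, 13 with reads in D2 and 18 in B6. In 29 of the 31 the CMD libraries were separated the same way. The share of all genes separated in CMD was not counted, so the 29 cannot be set against it. Ifi202b, an interferon-inducible gene known to be silent in C57BL/6, had 0 reads in every B6 WT library and 823 in D2 WT (6.12 CPM), at least 208-fold higher against a floor of 3 reads over the group. Mcpt2, a mast cell protease, had 0 reads in B6 and 1011 in D2, at least 255-fold higher. Its D2 levels were even, at 7.65, 6.71 and 8.09 CPM, but its call was lost without library 1, 2, 3 or 21 (adjusted p up to 0.073). The test used a spread pooled over all groups, and 67 WT was at 3.97, 0 and 3.10 CPM. Slc28a2b, of a family of nucleoside carriers, had 1 read in B6 and 659 in D2, a ratio of 499 (95% counting interval 89.2 to 19740). C1s2, a copy of the complement protease C1s, had 3 reads against 202, a ratio of 51.0 (17.2 to 249). The histone genes H2bc12 and H2bc13 are in this set too, but at most 0.488% of their D2 reads were unique, so their counts cannot be told apart from those of other histone copies.

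In the other direction Fgfbp1, a carrier protein for fibroblast growth factors, had 52, 455 and 1037 reads in the B6 libraries and 2 in all of D2, a ratio of 1020 (282 to 8427). Its level differed widely among the B6 mice, yet none came near D2. The interferon-inducible GTPase gene Gvin1 had 1062 reads in B6 and 0 in D2, at least 468-fold lower in D2, with 6.31% of its reads unique. Trim12a and Trim30d, of an antiviral ubiquitin ligase family, had 352 and 113 reads in B6 and 2 and 3 in D2, ratios of 233 (63.9 to 1927) and 49.8 (16.6 to 245). Nek5, a protein kinase, had 108 reads in B6 and 0 in D2. Snap25, Syt1, Grin1, Gad2, Grm5, Gria1, Syt4, Bcan, Lrrc7 and Sncb are known from brain, and each followed the brain sum given above by the correlation of 0.6, which for Snap25, Syt1, Grin1 and Gad2 is partly fixed because they are members of that sum. Ppm1n and Mup18 also belong to the set, and Mup18 missed the threshold (adjusted p = 0.0518). Of the 13 genes read in D2, Ucp1, the uncoupling protein of brown fat, was not called (adjusted p = 0.0763): library 19 held 2487 of its 2513 reads. Strit1 and Hamp2 also missed the threshold, and the other members read in D2 were Fgf20, Rnase2a, Rpl27rt and H2-Q1. Rnase2a lost its call whichever library was left out (adjusted p up to 0.129), H2-Q1 without library 2 (0.0538), and H2bc13 without library 1 or 3 (up to 0.062). In 87 WT, which the pooled spread includes, Rnase2a was at 3.10, 0 and 1.94 CPM and H2-Q1 at 1.79, 0.810 and 0. In 67 WT, H2bc13 was at 0, 1.76 and 2.01 CPM.

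A list of 12 genes with well-known differences between these strains was read as a check of the labels. Of the 10 tested, 4 were called higher and 2 lower, against 2.82% and 4.56% of all genes. Alad, a heme synthesis enzyme whose gene is duplicated in DBA/2J, was at 15.9, 11.96 and 17.3 CPM in B6 and at 55.6, 54.2 and 51.2 in D2, 3.57-fold higher (adjusted p = 7.69e-05). Glo1, glyoxalase, also duplicated in DBA/2J, was at 127, 127 and 132 CPM against 218, 250 and 214, 1.77-fold higher (adjusted p = 0.000136). H2-Ea, a class II chain that C57BL/6 does not make, had 4 reads in all of B6 and 1117 in D2. Gpnmb, which carries a premature stop in DBA/2J, was at 9.20, 3.20 and 3.50 CPM in B6 and at 0.200, 0.0483 and 0.458 in D2, 21.7-fold lower (adjusted p = 0.00159). In each of these 4 genes the groups lay apart in the direction known for the strain, and Gabra2, below, went the other way. The call of H2-Ea was lost whichever library was left out (adjusted p 0.0595 to 0.114), with the groups still apart. Its levels in 87 WT, whose spread the fit also used, were 30.1, 19.6 and 0 CPM.

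Nnt, the mitochondrial transhydrogenase that C57BL/6J carries with an internal deletion, was at 3.83, 4.78 and 23.5 CPM in B6 and at 74.2, 40.6 and 98.7 in D2 (log2 fold change 2.73 ± 0.66). Only 4.07% and 3.95% of these reads were unique, and the call was lost without library 1, 2 or 21 (adjusted p up to 0.0788). In CMD muscle its mean was 15.8 CPM in B6 and 19.7 in D2, a log2 fold change of 0.32 that was not called (adjusted p = 0.755). The test of the difference between the WT and the CMD effect did not pass for it either (adjusted p = 0.15). Gabra2, a GABA receptor subunit whose level is known to be lowered in C57BL/6J by an intronic deletion, was 8.22-fold lower in D2, at 0.745 ± 0.445 CPM in B6 and 0.0869 ± 0.0517 in D2 (SD, n = 3), and its call was lost without library 2, 19 or 20. Its correlation with the brain sum over the libraries that are not D2 was 0.515. Ltbp4 and Anxa6, a TGF-beta binding protein and an annexin of membrane repair that carry known DBA/2J modifier alleles of muscular dystrophy, did not pass the test. Ltbp4 was at 83.6 ± 29.3 CPM in B6 and 115 ± 23.9 in D2 (adjusted p = 0.511), and Anxa6 at 244 ± 23.98 and 229 ± 7.17 (adjusted p = 0.759). Cox7a2l, whose strain alleles differ in the protein, was at 104 ± 7.43 and 109 ± 5.53 CPM (adjusted p = 0.863). Tyrp1, Klrd1 and Hc had at most 2 reads in either group.

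Where the genome holds near copies, a strain difference can be one of read assignment. Hmga1, a chromatin protein, was at 45.9, 43.0 and 38.6 CPM in B6 and at 8.19, 11.1 and 8.68 in D2, while its copy Hmga1b was at 1.58, 1.14 and 0.311 against 34.8, 37.7 and 35.6. The sum of both was 47.5, 44.2 and 38.9 CPM in B6 and 43.0, 48.8 and 44.3 in D2, so it overlapped between the strains although each copy was called. Only 28.2% of the Hmga1 reads of B6 and 24.5% of the Hmga1b reads of D2 were unique. The calls were lost without library 19 or 21 for Hmga1 and without library 2 or 3 for Hmga1b. The spread in the fit also took in 87 WT, where Hmga1b was at 36.9, 41.0 and 0.792 CPM. The alpha globin copies also had differences of opposite sign, but their sum was uneven. Hba-a2 was 5.48-fold lower in D2, with 16.1% of its B6 reads and 5.66% of its D2 reads unique, while Hba-a1 was at 37.5 ± 15.8 CPM in B6 and 131 ± 79.8 in D2 and was not called (adjusted p = 0.13). Their sum was 89.5, 68.9 and 126 CPM in B6 and 179, 41.9 and 202 in D2, with libraries 19 and 21 above B6 and library 20 below. The call of Hba-a2 was lost whichever library was left out (adjusted p 0.0505 to 0.109).

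For enolase the sum did not even out. Eno1b was at 0.940, 0.718 and 0.233 CPM in B6 and at 90.7, 42.0 and 41.0 in D2 (log2 fold change 6.55 ± 0.71). Its copy Eno1, the glycolytic enolase of most tissues, was at 72.3 ± 8.38 and 60.5 ± 19.5 CPM, and the sum was 81.3, 73.7 and 63.9 CPM in B6 and 174, 90.9 and 90.5 in D2. Of the Eno1b reads 24.6% and 32.1% were unique. Rnaset2a, one of a pair of copies of the ribonuclease RNase T2, was 3.17-fold higher in D2, but with unique reads alone its log2 fold change was 0.65 (adjusted p = 0.334).

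Several slow fibre genes were higher in D2, in 2 of its 3 mice. Slow, or type I, fibres carry the myosin heavy chain Myh7, the troponins Tnnc1, Tnni1 and Tnnt1 and the calcium pump Atp2a2, and the mouse quadriceps is built almost only of fast fibres. Of 12 slow fibre genes 5 were called higher in D2, against 2.82% of all genes, and none lower. The median log2 fold change of the 12 was 2.82. Myh7 was at 0, 1.82 and 4.41 CPM in B6 and at 150, 0.917 and 923 in D2. Tnni1 was at 0.101, 0.299 and 1.45 CPM against 27.96, 1.76 and 119, and Tnnc1 at 0.168, 0.718 and 1.87 against 25.5, 1.23 and 119. Libraries 19 and 21 lay far above B6 in each, and library 20 lay among or just above the B6 libraries. Libraries 19 and 21 are also the D2 WT libraries whose Y-linked reads went against their male label, and whether this bears on the difference was not tested.

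The log2 fold changes were 7.40 ± 2.09 for Myh7 (adjusted p = 0.0345), 6.26 ± 1.31 for Tnni1 (0.00447), 5.68 ± 1.22 for Tnnc1 (0.00545), 5.0 ± 1.23 for Tnnt1 (0.0146) and 2.54 ± 0.63 for Atp2a2 (0.0146). With the estimate of spread taken from the 6 WT libraries alone, none of the 12 was called, while DESeq2 on all 24 called 5. Leaving out library 1, 2 or 21 left 2 calls, leaving out library 3 or 20 gave 8, the sex labels as a term left 2, and sex taken from the Y-linked reads left 5. The median was 5.79 without library 3 and 2.06 to 3.33 without any other one. Sarcolipin (Sln), a peptide that inhibits the calcium pump, was at 1.25, 0.603 and 14.2 CPM in D2 against 0.705, 0.329 and 0.596 in B6, and without library 21 its log2 fold change was 0.78 instead of 3.30 (adjusted p = 0.772). Its call was also lost without any one B6 library (adjusted p up to 0.17).

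None of 14 fast fibre genes was called (4 lower in D2 at an unadjusted p under 0.05, 0 by DESeq2), with a median log2 fold change of -0.36. In TPM, which allows for gene length, the fast chain Myh4 of type IIB fibres made up 99.9%, 95.9% and 86.2% of the 4 adult myosin heavy chains in B6 and 83.2%, 88.9% and 74.7% in D2. The share of Myh2, the chain of the oxidative IIA fibres, was 0.0044%, 0.549% and 4.36% in B6 and 5.41%, 3.50% and 5.53% in D2. Myh1, of IIX fibres, had shares of 0.142%, 3.60% and 9.49% in B6 and 11.2%, 7.63% and 18.5% in D2. B6 library 1 had the least and library 3 the most of both oxidative chains among the B6 mice, and library 3 lay near the D2 libraries. The slow chain Myh7 reached 1.31% of the sum in library 21 and 0.195% in library 19, and stayed at or under 0.00529% in the other 4.

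**Figure D4:**
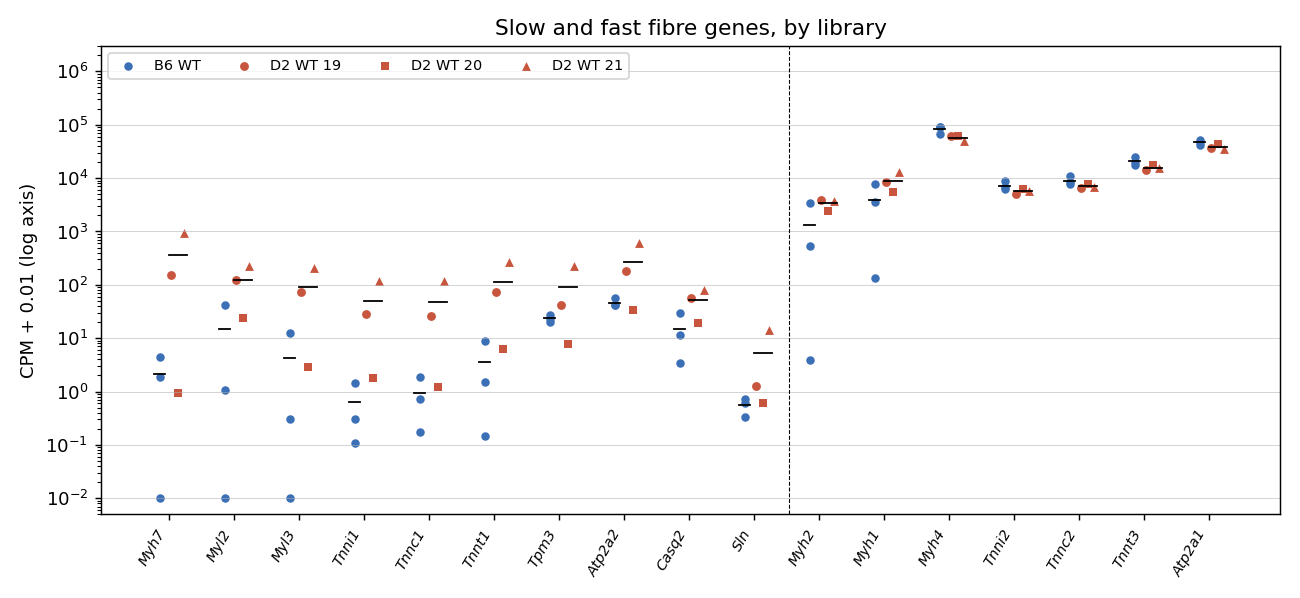
CPM (log axis, 0.01 added) of slow fibre genes with sarcolipin (left of the dashed line) and of fast fibre genes (right) in the 3 B6 WT libraries (blue) and the 3 D2 WT libraries (red, a symbol for each mouse), with group means as bars. Libraries 19 and 21 stand above B6 for Myh7, Tnni1, Tnnc1 and Tnnt1, and library 20 does not stand apart to the same extent.

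Several genes of oxidative metabolism were slightly higher in healthy D2 muscle. The respiratory chain moves electrons through complexes I to IV to drive ATP synthase, with most subunits encoded in the nucleus. Of 29 nuclear-encoded subunits, 28 had a positive log2 fold change, with a median of 0.45. Of the 29, 6 were called higher (20 at an unadjusted p under 0.05), against 2.82% of all genes. Ndufb5, of complex I, was at 155, 151 and 189 CPM in B6 and at 259, 292 and 329 in D2, 1.77-fold higher (log2 fold change 0.83 ± 0.16, adjusted p = 0.00276). Uqcrfs1, the iron-sulfur protein of complex III, was at 231, 266 and 332 CPM against 394, 436 and 535, and Cyc1, Uqcrc2 and Ndufs3 were also called, with log2 fold changes of 0.64, 0.64 and 0.46. In Ndufb5 and Uqcrfs1 the groups did not overlap, as in 409 of all 417 higher calls and 29.6% of all genes. Library 3 was the highest of the B6 mice in both. Leaving out library 1, 2 or 21 left 1 call each, leaving out library 3 gave 11, and DESeq2 called 10.

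In dystrophic muscle the strain difference of the same subunits had the opposite sign. There 28 of 29 were called lower in D2, against 10.4% of all genes, with a median log2 fold change of -0.82. The difference between the WT and the CMD strain effect passed the threshold for 27 of 29, against 3.62% of all genes. Without libraries 16 and 23 these counts were 21 and 28. The 13 mitochondrially encoded subunits were not called in WT (1 at an unadjusted p under 0.05, 1 by DESeq2), where their median was 0.13, but 11 were called lower in D2 CMD and 9 passed the test of the difference.

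Of 27 genes of fatty acid uptake and oxidation, all 27 had a positive difference in WT, with a median of 0.50. Of the 27, 2 were called, both higher, against 7.38% of all genes called in either direction. Acads, the short-chain acyl-CoA dehydrogenase, was at 52.0, 55.3 and 73.3 CPM in B6 and 99.0, 93.1 and 116 in D2. Hadh, which acts later in the cycle, was 1.72-fold higher. Hadh lost its call without library 1, 2 or 21 (adjusted p up to 0.0739). Without library 3 the list gave 8 calls and a median of 0.95, and without library 1, 2 or 21 it gave 1 call, with a median of 0.31 without library 1. Of 17 regulators of mitochondria and of NAD synthesis, 4 were called higher, against 2.82% of all genes. They were Mss51 and Nnt, described above, Nmrk2, a muscle nicotinamide riboside kinase, and Nmnat1, an adenylyltransferase of NAD synthesis. Nmrk2 was at 46.4, 23.4 and 49.3 CPM in B6 and at 131, 209 and 106 in D2 (3.74-fold), and lost its call without any one library except 21. Nmnat1 was 1.42-fold higher and lost its call without library 1, 3, 20 or 21. None of 22 genes of glycolysis and glycogen was called (1 higher and 1 lower at an unadjusted p under 0.05, and 1 higher and 1 lower by DESeq2).

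Several genes of the daily clock were lower in healthy D2 muscle. The clock turns on the factors Clock and Bmal1, which bind E-boxes and activate the repressors Per and Cry and output genes such as Dbp, Tef, Hlf and Ciart, and the products of Dbp, Tef and Hlf act through D-boxes. Of 19 clock genes 4 were called lower, against 4.56% of all genes, and none higher (11 at an unadjusted p under 0.05, 9 of them lower). Ciart, a repressor of Clock and Bmal1, was at 9.50, 5.50 and 15.1 CPM in B6 and at 1.34, 3.19 and 1.79 in D2, 4.78-fold lower (adjusted p = 0.00806). Per2 was at 10.2, 10.3 and 21.9 CPM against 5.41, 5.38 and 3.60, 2.95-fold lower (adjusted p = 0.00168). Per3 and Tef were 2.19-fold and 1.55-fold lower. The strains did not overlap in any of the 4, as in 667 of all 674 lower calls and 29.6% of all genes. Per3 lost its call without any one library except 1 (adjusted p up to 0.234), Tef without library 19 or 21 (up to 0.0655), and Ciart without library 19 (0.0528).

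Dbp followed the same direction at 109, 80.9 and 138 CPM in B6 and 18.2, 19.2 and 48.4 in D2, but missed the threshold (adjusted p = 0.111), and Bmal1 was at 19.7 ± 6.52 and 34.6 ± 5.28 CPM (adjusted p = 0.406). The number of lower calls was 1 without library 19, 2 without library 21, and 9 both in the fit of the 12 WT libraries and in the fit without libraries 16 and 23. In CMD muscle none of the 4 was called between the strains, and the difference between the WT and the CMD effect passed for Per2 (adjusted p = 0.00791) and Tef (0.0211). The hour of killing is not given in the labels, so a difference in hour and a difference in strain cannot be told apart.

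Promoters of 2 of the called clock genes are shown because they hold the letters of the clock elements. The windows run from 250 bases before to 50 after the start of the RefSeq transcript in GRCm38.p6, another build than the one the authors aligned to. Capitals mark the E-box CACGTG and the D-box TTATGTAA, searched on both strands. The Ciart window, chr3:95882179-95882478 on the minus strand, holds 3 E-boxes, and the Per3 window, chr4:151044616-151044915 on the minus strand, holds 2 D-boxes.
Ciart: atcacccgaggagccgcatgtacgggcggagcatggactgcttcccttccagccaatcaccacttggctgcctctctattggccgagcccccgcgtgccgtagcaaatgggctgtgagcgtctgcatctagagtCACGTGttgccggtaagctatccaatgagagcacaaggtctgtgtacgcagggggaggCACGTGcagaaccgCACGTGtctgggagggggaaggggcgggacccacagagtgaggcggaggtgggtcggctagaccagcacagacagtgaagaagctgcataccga
Per3: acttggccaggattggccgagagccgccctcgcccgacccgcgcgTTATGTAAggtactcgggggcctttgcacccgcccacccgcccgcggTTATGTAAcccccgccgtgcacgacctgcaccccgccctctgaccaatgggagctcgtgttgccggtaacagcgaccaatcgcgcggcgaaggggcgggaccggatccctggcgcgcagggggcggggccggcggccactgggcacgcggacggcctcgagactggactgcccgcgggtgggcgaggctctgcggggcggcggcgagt
Of all 32851 promoter windows of that table, 7.15% hold an E-box and 0.938% a D-box. Both Tef windows hold 1 E-box each. Of the 15 clock genes with a window, 5 hold an E-box and 1 a D-box. The matches describe the reference sequence, which is that of C57BL/6J, and say nothing of binding or of the D2 sequence.

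**Figure D5:**
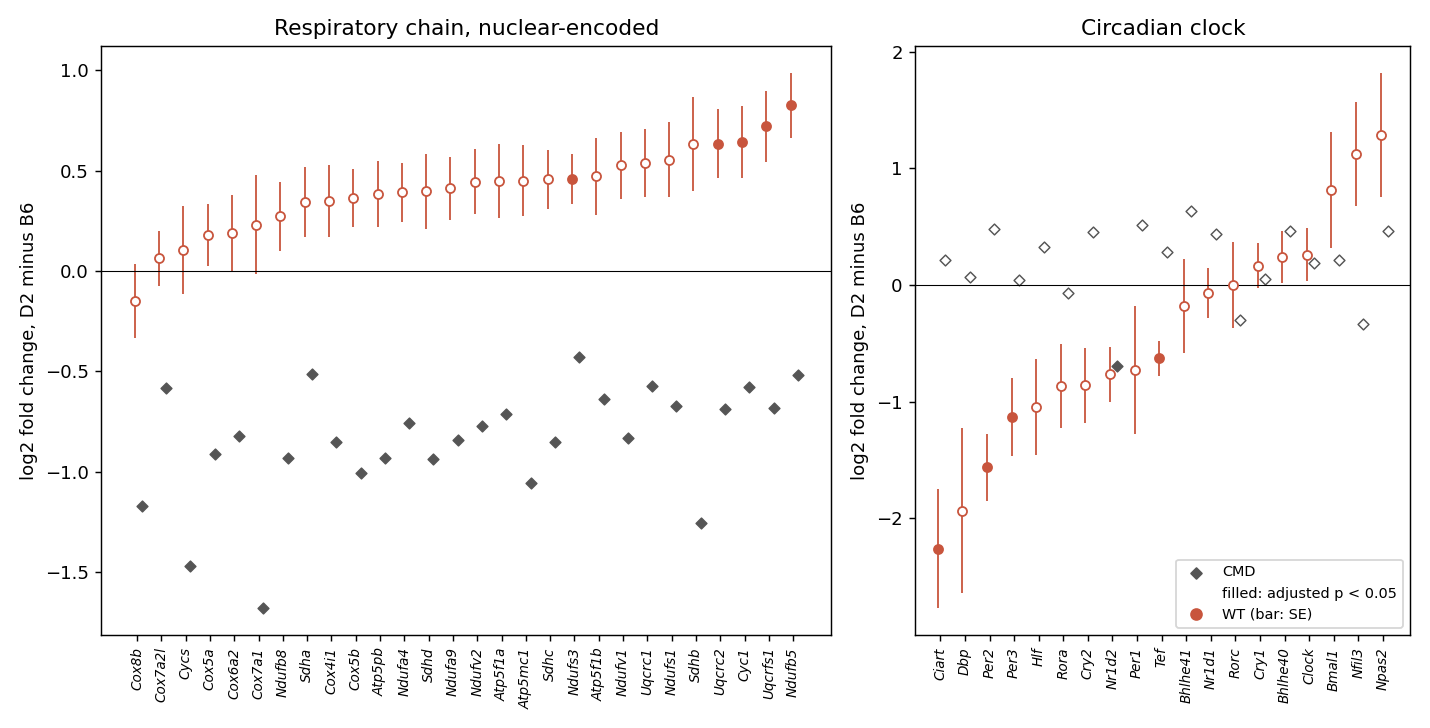
Log2 fold change of D2 against B6 for 28 of the 29 nuclear-encoded respiratory chain genes (left) and 19 clock genes (right), in order of the WT value. Red circles are WT with the SE as bar, grey diamonds are CMD, and filled symbols passed an adjusted p of 0.05. The respiratory chain genes lie above 0 in WT with 1 exception and below 0 in CMD, and the 4 clock genes called lower in WT lie above 0 in CMD.

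Immediate early genes respond within minutes to activity, stress or handling. Of 23 immediate early and heat shock genes 3 were called higher, against 2.82% of all genes, and none lower (7 at an unadjusted p under 0.05). Egr1 was at 3.86, 5.95 and 2.93 CPM in B6 and at 57.3, 21.6 and 23.95 in D2 (log2 fold change 3.01 ± 0.63, adjusted p = 0.00437). Atf3 was at 0.940, 2.69 and 2.02 CPM against 11.03, 9.07 and 13.98, and Fosb at 0.269, 0.628 and 0.0778 against 7.23, 2.75 and 1.12. None of their groups overlapped, as in 409 of all 417 higher calls and 29.6% of all genes. Atf3 lost its call without any one library except 20 (adjusted p up to 0.129), and Fosb without any one except 21 (up to 0.191). The list gave 1 call without library 1, 3 or 19. Egr1 and Fosb had a positive difference in CMD too, at 1.61 and 3.02, while Atf3 had -0.64.

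Of 25 myogenic genes 1 was called and of 24 neuromuscular junction genes 2, against 7.38% of all genes. Myog, the myogenin transcription factor, which is known to rise in muscle that loses its nerve, was at 2.99, 4.43 and 2.59 CPM in B6 and at 7.25, 19.8 and 12.2 in D2 (log2 fold change 1.97 ± 0.53). It lost its call without library 1, 2, 3, 20 or 21. At the neuromuscular junction, Lrp4, the agrin receptor, was at 8.09, 12.8 and 12.7 CPM against 20.4, 21.1 and 25.3, and Chrnb1, an acetylcholine receptor subunit, at 28.4, 30.8 and 23.8 against 33.8, 60.3 and 46.9. The 3 genes had no overlap between the strains, as in 409 of all 417 higher calls and 29.6% of all genes. Lrp4 lost its call without any one library, and Chrnb1 without any one except 19. In CMD all 3 were called higher in D2.

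Of 27 redox and glutathione genes 2 were called higher and 3 lower, against 2.82% and 4.56% of all genes, and the list had a median of -0.06. Nqo1, a quinone reductase and a target of the factor Nrf2, was at 31.2, 33.0 and 41.2 CPM in B6 and at 12.5, 20.4 and 13.96 in D2, 2.25-fold lower (adjusted p = 0.00678). Gstm1, a glutathione transferase, was at 204 ± 30.4 CPM against 119 ± 11.4, and Gclc, of glutathione synthesis, at 13.9 ± 0.991 against 10.1 ± 0.273. Glo1 and Prdx2, a peroxiredoxin (71.3 ± 4.68 CPM against 107 ± 23.7), were higher. Gstm1 lost its call without library 2, 3 or 21, Prdx2 without library 21, and Gclc without any one library except 2. Of 23 growth signalling genes 2 were called, against 7.38% of all genes: Grb14, an inhibitor of the insulin receptor, at 4.80, 10.2 and 15.8 CPM in B6 and 40.5, 36.7 and 41.9 in D2, and the kinase Akt2, 1.39-fold lower. Grb14 lost its call without library 1 or 2 (adjusted p up to 0.0605), and Akt2 without any one of the 6 (adjusted p up to 0.181).

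Of 35 cytosolic ribosomal protein genes 5 were called lower in D2, against 4.56% of all genes, while the list as a whole had a median of 0.12. Rps18 was at 123, 124 and 118 CPM in B6 and at 36.5, 39.7 and 40.4 in D2, Rpl29 at 114, 104 and 106 against 43.5, 44.5 and 44.3, and Rplp0 at 470, 510 and 525 against 191, 221 and 221. Rps2 and Rpsa were 1.62-fold and 1.497-fold lower. All 5 were called lower in CMD muscle as well, and with unique reads the count was also 5. Such genes have many processed copies in the genome. Of the Rps18 reads 66.5% in B6 and 61.6% in D2 were unique, against 96.4% or more for the other 4. Rps2 and Rpsa lost their calls without any one library (adjusted p up to 0.137 and 0.143), which left 3.

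Single genes were called in several other lists, where 7.38% of all genes were called in either direction. Xaf1, an interferon-induced partner of apoptosis inhibitors, was at 1.91, 1.47 and 1.71 CPM in B6 and at 7.85, 7.43 and 6.41 in D2 (log2 fold change 2.09 ± 0.42, adjusted p = 0.00336), the only called gene of 32 of the interferon response. Of 28 antigen presentation genes H2-Ea alone was called, and of 19 complement genes Cd59a, which blocks the terminal complement complex, at 14.6 ± 3.36 CPM against 30.2 ± 3.86. Fbn1, fibrillin, the scaffold of elastic microfibrils, was 2.35-fold higher and the only one called of 34 fibrillar matrix genes, and lost its call without library 2, 3, 19 or 21. Atf5, a factor of the integrated stress response, was 1.89-fold higher at 138 ± 31.3 CPM in D2, the only one of 19. Calcium handling had 2 of 20, Atp2a2 and Sln, described above.

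In 11 of the 29 pathway lists no gene was called: fast fibre, glycolysis and glycogen, mitochondrially encoded subunits, glucocorticoid and atrophy genes, basement membrane and laminins, dystrophin complex and sarcolemma repair, TGF-beta with myostatin and BMP, dystrophy modifiers, polyamines, autophagy and proteasome, and imprinted growth genes. Over their 229 tested genes, 14 were higher and 20 lower at an unadjusted p under 0.05, and DESeq2 called 5 higher and 3 lower. The 25 basement membrane genes had a median log2 fold change of 0.17, the 30 genes of the dystrophin complex 0.05, and the 36 of the TGF-beta list 0.21. With 3 mice per strain, smaller differences than those called above can have been missed.

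Cell type markers gave few calls, where 7.38% of all genes were called in either direction. In 9 marker lists of cell types no gene was called, among them macrophage, lymphocyte, adipocyte, fibro-adipogenic progenitor, endothelium, smooth muscle and satellite cell (7 higher and 1 lower of 102 genes at an unadjusted p under 0.05, 2 by DESeq2). In bulk RNA, fewer cells of a type and less RNA per cell cannot be told apart. The macrophage markers summed to 198, 68.4 and 82.4 CPM in B6 and 130, 76.0 and 118 in D2, and the adipocyte markers to 2726, 1824 and 2894 against 4631, 1215 and 1395, so both sums overlapped. Endothelial markers summed to 344 to 370 CPM in B6 and to 410 to 483 in D2. Of the 14 Schwann cell and nerve markers Nefl, an axonal neurofilament, was lower in D2 (log2 fold change -4.52 ± 0.78), with the brain sum given above moving the same way. In the blood list, of 9 tested genes, Ppbp was higher at 0.367 ± 0.194 CPM in D2 against 0.0644 ± 0.0566 and lost its call without library 1, 2, 19 or 21, and Hba-a2, discussed with its copy, was lower.

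Some called genes lay next to one another. In the gene order of the GENCODE M21 annotation (GRCm38), 237 of 1085 called genes placed there (21.8%) had a called gene as next tested neighbour, against 13.4% of the genes that were not called. Leaving out genes that followed the brain sum, the share was 22.2%. The longest run held 6 zinc finger neighbours on chromosome 17, Zfp943, Zfp947, Zfp994, Gm7072, Zfp944 and Zfp758, all lower in D2 with log2 fold changes of -0.86, -2.64, -1.48, -1.60, -1.05 and -0.79, and all 6 were called lower in CMD too. Single left-out libraries ended the calls of Zfp947 (each but library 20), Zfp944 (1, 2, 19 or 21), Zfp758 (1, 19 or 21) and Zfp994 (19 or 21), with adjusted p up to 0.169, and Gm7072 was not read that way. Of 339 tested genes named Zfp with a number, 7 were called higher and 19 lower (5.61%, close to the 4.56% of all genes), and 17 of the 19 were lower in CMD as well. Another run, on chromosome 5, held Gabrg1, Gabra2, Gabra4 and Gabrb1, subunits of the GABA receptor of nerve cells, and of these Gabrb1 followed the brain sum by the correlation of 0.6. The calls of Gabra4, Gabrg1 and Gabra2 were lost without library 2 (adjusted p 0.38, 0.0974 and 0.088), and also without library 20 and others.

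In the BXD strains the means of most of these genes were nearer to B6 than to D2, which does not make them close to B6. Chmp4c, for example, lay between the parents, with WT means of 0.81 CPM in B6, 3.43 in 67, 5.85 in 87 and 28.9 in D2. Among the genes called higher in D2 whose groups did not overlap, the 67 WT mean was nearer to D2 than to B6, on log2(CPM + 0.1), in 21.5% and the 87 WT mean in 24.2%. Among the lower genes the shares were 11.8% and 13.5%. Genes that followed the brain sum were not left out of these shares. That sum ran from 14.25 to 42.15 CPM in the 67 and 87 WT libraries, a level like that of B6. Fuca2 was at 12.1, 12.1 and 10.96 CPM in 67 WT, near B6, and at 30.0, 22.9 and 34.9 in 87 WT, near D2, and Alad showed the reverse, with 30.1, 36.9 and 30.6 CPM in 67 WT and 14.3, 15.8 and 15.04 in 87 WT. Hmga1b and H2-Ea differed within 87 WT: libraries 13 and 14 held 36.9 and 41.0 CPM of Hmga1b and 30.1 and 19.6 of H2-Ea, and library 15 held 0.792 and 0.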

How the data were processed

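RNA of the 6 quadriceps muscles was sequenced from stranded mRNA libraries as paired reads of 58 bases and, per the submitters' processing notes, the genome builds were GRCm39 and mm39; no aligner or counter is named in the labels or headers. The deposited counts are raw exon reads per Ensembl gene, unique and total, per the file headers. TPM, deposited by the authors, was used for myosin shares only, and RPKM, deposited by the authors, was not used. GRCm39 is the C57BL/6J genome, so D2 reads carry more mismatches; the effect was not tested.

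Total exon reads of all 24 libraries were fitted with 8 group terms in edgeR 4.0.16 (TMM, filterByExpr with minimum count 10 and minimum total 15, quasi-likelihood test, R 4.3.3), the contrast being D2 WT minus B6 WT. Of 25369 listed genes 14789 were tested, with Benjamini-Hochberg adjustment and a threshold of 0.05. The D2 CMD against B6 CMD contrast and the difference of both contrasts came from the same fit. DESeq2 1.42.0, other normalization, filters, sex terms, library sets and each library left out were alternatives. Scripts were tested on simulated data. The pooled spread is assumed to hold for the 2 libraries left in a group.

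Genes were named by rule. The first were the 10 higher and 10 lower with the largest change, which also had to be called the same way in CMD. The next were the 10 higher and 10 lower with the smallest p. Both sets came from called and separated genes whose log2 CPM averaged 1 or more. Added to them were the largest called changes of each list, known strain genes, and genes read in 1 strain only. Other list members were named after their values were seen. Members and lists were chosen with earlier results of these data known. The labels do not tie the mice to litters, and p-values measure the spread between these samples. Counting intervals (95%) cover counting error only. Promoters are from RefSeq. Some genes that the rules name are not reported here.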

Additional observations from a re-analysis of the deposited data

Results flagged for a closer look

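For 7 of the 92 genes named by the rule the strain difference in WT muscle differed from that in CMD muscle by the test of the difference itself, edgeR's quasi-likelihood test with Benjamini-Hochberg adjustment over all genes. Fgfbp1 was far lower in D2 in both, with log2 fold changes of -9.63 in WT and -3.13 in CMD, a difference of -6.50 (adjusted p = 0.0345). Unc5a had -4.26 and -2.89, a difference of -1.37 (0.0251). Osbpl3 was higher in D2 in both, at 3.50 and 1.58, a difference of 1.92 (0.0177). Hsd17b8 was higher in WT at 0.83 and had 0.27 in CMD, where it was not called (0.0755), a difference of 0.56 (0.0406). For Grb14 the sign differed, at 1.95 in WT and -1.25 in CMD, a difference of 3.19 (0.00921). The sign also differed for Ndufb5, at 0.83 and -0.52, a difference of 1.34 (0.00495), and for Hadh, at 0.79 and -0.34, a difference of 1.13 (0.0185). The same test passed for other genes that the report names, which were Acads, Cyc1, Uqcrc2, Uqcrfs1, Ndufs3, Nmnat1, Prdx2, Per2 and Tef.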

How the results depend on the processing

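No paired analysis was possible because the libraries are numbered 1 to 24 and the groups share no number. Of 138 genes read under the alternatives, 118 were called in the fit reported, and 77 kept direction and side of the threshold throughout. Of 2054 values 227 lost the threshold, 17 gained it and 4 turned sign. Those 4 were all of Tyrp1, at 1 read per group: 0.56 with the sex labels as a term, 0.14 without library 19 and 0.10 without 20, in a range of -2.10 to 1.81 (without library 2) over the libraries left out. With one library left out the calls ran from 632 to 913, higher calls from 204 to 338, lower calls from 428 to 575, slow fibre from 2 to 8, respiratory chain from 1 to 11, clock from 1 to 5, immediate early from 1 to 2, and ribosomal calls were 3. At a mean log2 CPM of at least 1 there were 562 calls, 267 of them lower. Higher calls numbered 639 with the 12 WT libraries alone, 654 without libraries 16 and 23, and 233 at a log2 fold change of at least 1. The CMD comparison gave 3151 calls, 1480 at that size. Slow fibre calls were 0 with the 6 libraries alone and 2 with the sex labels. Respiratory chain calls were 10 by DESeq2 and 10 with the 12 WT libraries, clock calls 9 with the 12 WT libraries and 9 without libraries 16 and 23, and immediate early calls 5 in both. The causes were not tested. Depth limits genes under 1 CPM, such as Gabra2 and Ppbp.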
